A study of Mus musculus with 55 samples.

Results

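Of the 9911 genes listed for CCNA-GFP cells, 95 had mean pre-mRNA levels a set gap below asynchronous cells at every stage up to 120 min. The asynchronous mean was the highest of all stages, by any gap, in 972 genes (9.81%). The members were chosen by their measured values. The mean log2(TPM + 1) of a member in asynchronous cells lay at least 0.4 above its mean in mitotic cells and above its mean at every sampled time from 20 to 120 min after release. TPM (a library-scaled transcript abundance per length) is here that of the unspliced isoform of each gene, and this gap to the highest other stage is called the margin. All 19 CCNA-GFP libraries entered the choice, so differences between asynchronous cells and the other stages are a description there, with no test. The CTCF-AID libraries did not enter it, and 76 of the 95 genes are among the 10237 genes listed for them.

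Both lines are mouse E14Tg2a embryonic stem (ES) cells of the 129/Ola strain, grown in serum and LIF. CCNA-GFP cells carry a CCNA-GFP reporter of the cell cycle, and CTCF-AID cells, a single clone, carry an auxin-inducible degron on the architectural factor CTCF. Mitotic cells of both lines were obtained with the CDK1 inhibitor RO-3306 (10 µM, 4 h), then nocodazole (50 ng/ml, 4 h) and shake-off, and were released without nocodazole. CTCF-AID cells were left untreated (−IAA) or received the auxin IAA (0.5 mM) for 2 h, from 2 h into nocodazole, which was kept in the medium during release (+IAA). Asynchronous cells were grown without the synchronisation, and those of the +IAA arm received IAA for 4 h by the study's methods. Released cells were reseeded in dishes that had no gelatine coating. All mitotic and released cells had gone through the drugs and the shake-off, and asynchronous cells had not. In both lines a difference from asynchronous cells by stage and one by this handling therefore cannot be told apart. For CCNA-GFP there are 3 asynchronous and 3 mitotic libraries, 1 library at 50 min and 2 at each other time. Each CTCF-AID arm has 3 asynchronous, 3 mitotic and 2 libraries at each of 20, 40, 50, 60, 90 and 120 min, 36 libraries in all.

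Pre-mRNA keeps its introns and is short-lived, so its level follows ongoing transcription more closely than that of mature mRNA. RNA polymerase II leaves most chromatin in mitosis and has to travel the whole of a gene again after division, so that a long gene fills with polymerase later than a short one. Genes of DNA replication are known for transcription around the onset of S phase, replication-dependent histone genes for transcription during it, and genes of the spindle and kinetochore for transcription in G2, which cells reach hours after division. The comparisons therefore asked whether the members are long genes, S phase or G2 genes, and whether they behave alike in the CTCF-AID clone.

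Summed TPM of the listed genes ran from 13747 to 42576 per CCNA-GFP library and from 17702 to 43370 per CTCF-AID library, and was lowest in mitotic cells and at 20 min. TPM hold no read counts, so the depth behind each value is unknown. The ES markers summed to 74.1 to 133 TPM in asynchronous CCNA-GFP cells, with 9 of 10 listed (Sox2 is not listed), against 1.31 to 2.67 TPM for the 1 of 11 fibroblast markers listed (Vim), 4.93 to 7.56 TPM for 5 of 14 primitive endoderm markers and 2.2 to 12 TPM for 6 of 14 markers of 2-cell-like cells. The defining endoderm genes Gata4, Gata6 and Sox17 are not among the listed genes. Asynchronous replicate 3 stood apart: it had the highest asynchronous value in 79 of the 95 members (83.2%), and in 83% of all genes. Replicate 3 was also the highest of the asynchronous CTCF-AID libraries in 62 of 76 members −IAA (81.6%, against 75.1% of all genes) and in 56 +IAA (73.7%, against 65.6%). Without replicate 3, 59 genes met the rule, 50 of them members, and without replicate 2, 177 genes, 88 of them members. With the rule applied to differences within replicates, 64 genes met it, 55 of them members (57.9% of the 95). In bulk RNA, fewer cells of a type and less RNA per cell cannot be told apart.

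The members differed from other genes mostly in what they did not do after release. On the log2(TPM + 1) scale, the median gene of all 9911 lay 0.14 above mitotic cells by 30 min, 0.65 above by 50 min, and 0.79 and 0.62 above by 90 and 120 min. The median member stayed between −0.08 (40 min) and 0.03 (50 and 90 min) of its mitotic level after release, with −0.06 at 20 min, −0.07 at 60 min and 0.02 at both 30 and 120 min, and reached 0.65 in asynchronous cells, against 0.33 for all genes. At 20, 40 and 60 min, where the members' median was below 0, that of all genes was −0.00, 0.20 and 0.73. Within replicates the members' median ran from −0.05 (50 min) to 0.06 (120 min), and was −0.01 at 90 min. The share of members below their mitotic mean varied with the stage, from 34.7% at 30 min to 84.2% at 40 min, and was 67.4% at 60 min and 44.2% at 120 min, against 9.37%, 17.9%, 5.78% and 3.74% of all genes. Taken within replicates, since no time after release has all 3, it was 54.7% at 60 min and 36.8% at 120 min (4.27% and 2.9% of all genes). Since the rule holds every stage under the asynchronous level, these shares describe the selection.

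**Figure D1:**
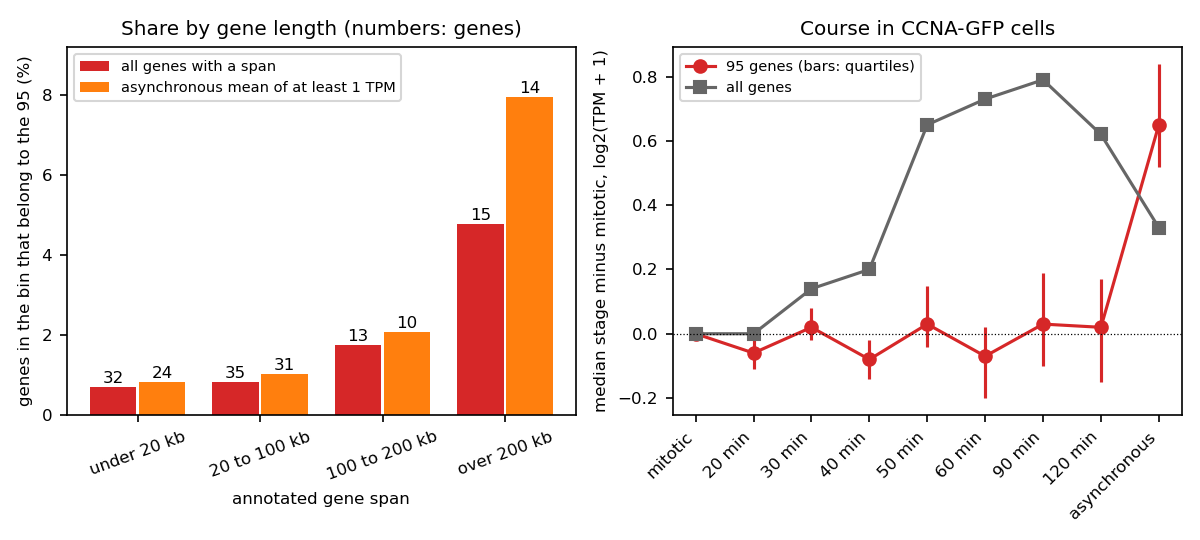
Left, percentage of genes that belong to the 95, in 4 bins of annotated gene span (kb), for all genes with a span and for genes with an asynchronous mean of at least 1 TPM; the number of members stands above each bar. Right, median change from mitotic cells on the log2(TPM + 1) scale at each CCNA-GFP stage for the 95 genes (bars, quartiles) and for all 9911. The share rises from 0.703% under 20 kb to 4.78% over 200 kb, and the median of the 95 genes stays near 0 until 120 min.

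Different courses could be told apart among the members by their CCNA-GFP means. Pre-mRNA of 14 members came up by at least 0.4 above mitotic cells at some stage and still stayed short of asynchronous cells: Gtf3c2, Hist1h2bq, Tdgf1, Rpl24, Cobl, Inhbb, Msantd2, Platr26, Cep68, Pramel7, Slc16a3, Aire, Porcn and Mettl5. In 17 others no stage was that high and the mean at 120 min lay at least 0.2 below mitotic cells: Uri1, Fgf17, Cenpa, Nedd4, Cox16, Rnf165, Gli2, Ranbp17, Coq2, Ncoa7, Slc27a2, Fmnl2, Sulf1, Eefsec, Olfr459, Suclg2 and Snd1. The remaining 64 (67.4%) met neither definition, which leaves room for lower values in between: Triml1 went from a mean log2 of 2.27 in mitotic cells to 1.53 at 60 min. By the same definitions 87% of all genes came up, 0.928% dropped and 12.1% met neither. The members of the first course were the shortest, with a median span of 12.5 kb, compared with 49.3 kb for those that met neither definition and 126 kb for those that dropped. With differences taken within replicates, a form added after seeing the data, 11 members came up, 11 dropped (0.706% of all genes) and 73 met neither, with median spans of 12.7, 126 and 46.4 kb. Fgf17, Cenpa, Nedd4, Gli2, Ranbp17 and Ncoa7 then no longer counted as dropped, nor Inhbb, Platr26 and Cep68 as having come up.

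**Figure D2:**
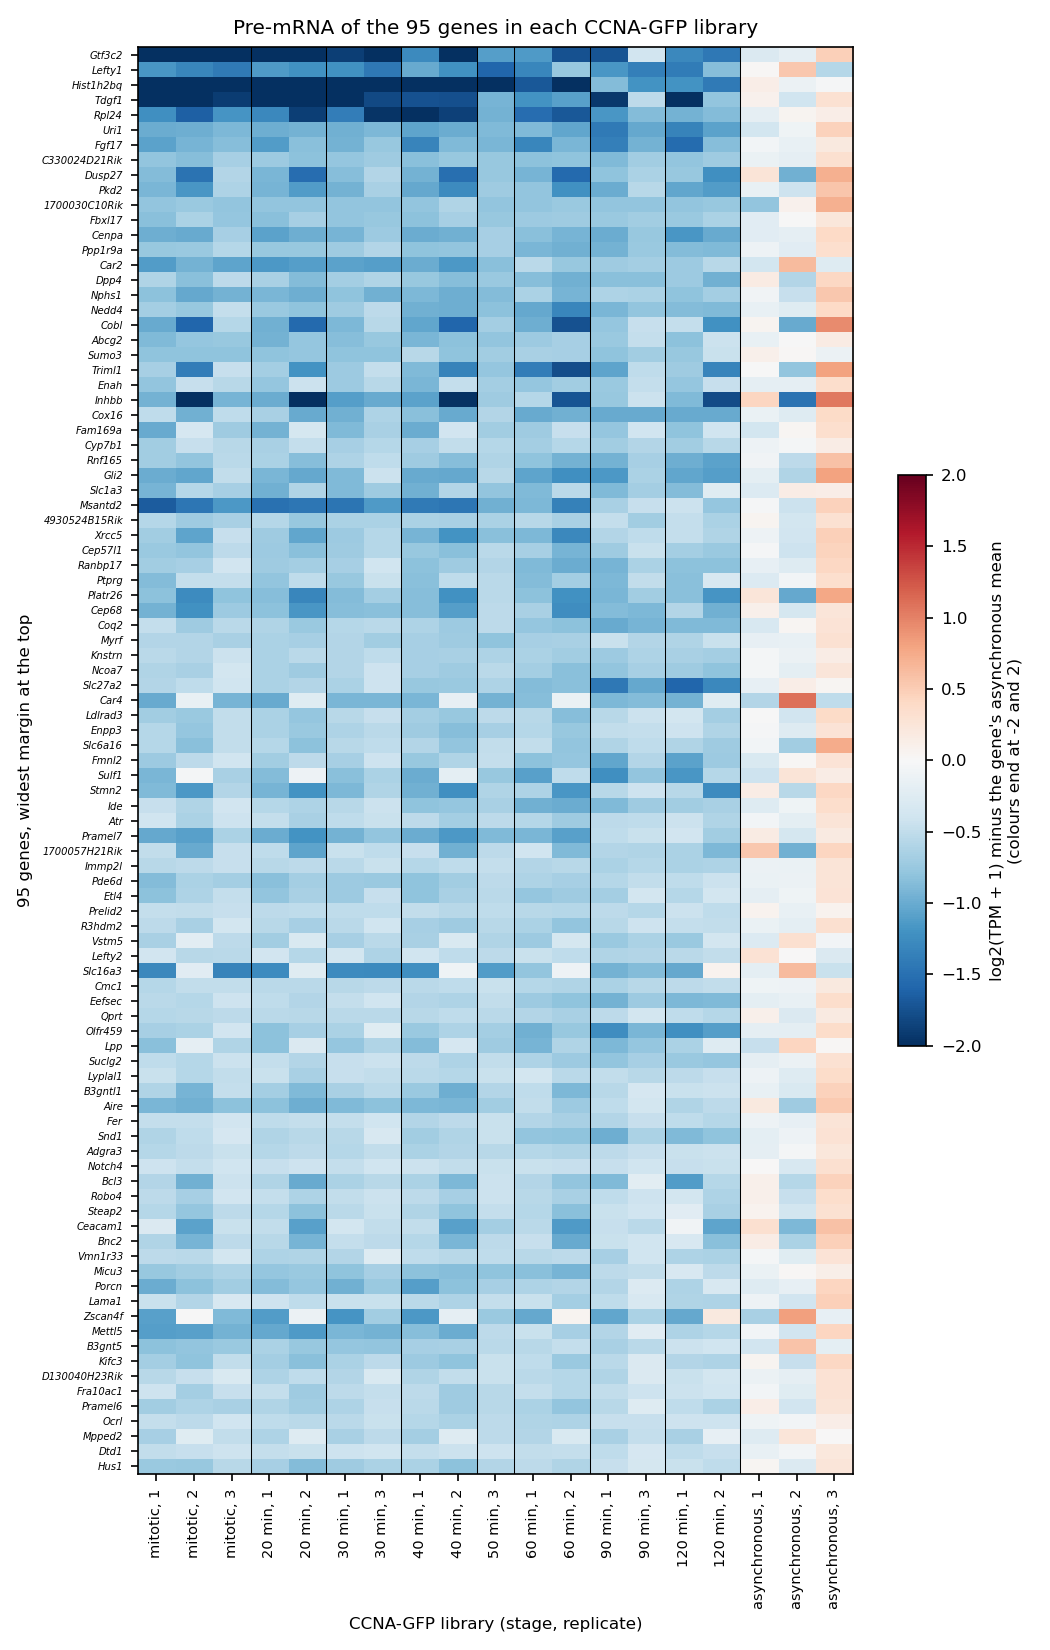
Heat map of the 95 genes (rows, widest margin at the top) in the 19 CCNA-GFP libraries (columns, by stage and replicate). Colour is log2(TPM + 1) minus the mean of the 3 asynchronous libraries of that gene, blue for lower and red for higher. The 16 other libraries are blue almost throughout, and asynchronous replicate 3 is the reddest column in 79 rows.

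Margins ran from 0.40 to 1.06, with a median of 0.49 and 21 members at 0.6 or above. Asynchronous means ran from 0.598 to 291 TPM, with a median of 2.06 TPM. All 3 asynchronous libraries lay above all 16 others in 62 of the 95 members, which holds for 2.26% of all genes, and the rule used these values. Of the 95, 91 are protein coding, 2 are lincRNAs and 2 are processed transcripts. Just inside the threshold were Dtd1, a D-aminoacyl-tRNA deacylase (margin 0.407), and Hus1 of the DNA damage checkpoint clamp (0.403). Just outside were Cenpv (0.399) and Dph6 of diphthamide synthesis (0.397). A gene entered the deposited table by passing 0.5 TPM either in asynchronous cells or in 2 or more samples after release, and 24 of the 95 did not reach 0.5 TPM in 2 later stages, so they are in the table only through the cells in which they are high.

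The widest margin was that of Gtf3c2, a subunit of the RNA polymerase III factor TFIIIC (chromosome 5, 31156005 to 31180144, GRCm38), whose span overlaps the annotated gene Gm29609 on the same strand. Its pre-mRNA was 2.99, 3.29 and 5.81 TPM in the 3 asynchronous libraries, 0.105, 0.0996 and 0 TPM in mitotic cells, and from 0.0434 to 2.76 TPM with a median of 0.469 TPM in the 13 libraries after release. The groups did not overlap. Hist1h2bq, an H2B histone gene of 3.59 kb whose sequence is close to that of other H2B genes, so that reads may be shared, was the most abundant member. It had 319, 268 and 287 TPM in asynchronous cells, 21.8, 27.7 and 18.2 TPM in mitotic cells, and from 16.8 to 159 TPM (median 35.5 TPM) after release. Its highest library after release was at 90 min, its 120 min libraries held 127 and 109 TPM, and the groups did not overlap.

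Rpl24, a protein of the large ribosomal subunit, had 4.79, 5.87 and 6.19 TPM in asynchronous cells and from 0.387 to 2.63 TPM (median 1.53 TPM) after release. The prefoldin-like chaperone gene Uri1 had 6.06, 7.6 and 11.6 TPM in asynchronous cells, and after release from 2.45 to 3.97 TPM around a median of 3.61 TPM. Both were without overlap between asynchronous cells and the other libraries, and Uri1, at 3.72 ± 0.169 TPM in mitotic cells (SD, n = 3), was at its lowest in replicate 1 at 90 and 120 min, with 2.45 and 2.64 TPM. The noncoding transcript C330024D21Rik was at 0.721 to 0.956 TPM after release against 1.89, 1.8 and 2.94 TPM in asynchronous cells. Pkd2, the cation channel polycystin-2, had 4.03, 3.2 and 7.18 TPM in asynchronous cells and from 1.32 to 2.79 TPM after release. Dusp27, an atypical dual-specificity phosphatase gene, overlapped: its asynchronous values of 6.82, 2.37 and 9.68 TPM include a replicate 2 below the highest later library, at 3.36 TPM, and replicate 2 was low for this gene in mitotic cells too (1.36 TPM against 2.61 and 3.35 TPM).

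Members were longer than the genes of the table as a whole. Their annotated spans, from transcription start to end, had a median of 40 kb and quartiles of 13.9 and 121 kb, against 22.6 kb and quartiles of 9.99 and 50 kb for the 9900 genes with a span. Members made up 0.703% of genes under 20 kb (32 of 4552), 0.816% of those from 20 to 100 kb (35 of 4290), 1.75% of those from 100 to 200 kb (13 of 744) and 4.78% of those over 200 kb (15 of 314). Among genes with an asynchronous mean of at least 1 TPM the same shares were 0.826%, 1.01%, 2.07% and 7.95%. Long genes as a class were late: over 200 kb the median change from mitotic cells was 0.04 at 60 min and 0.25 at 120 min for all genes, against 0.91 and 0.70 under 20 kb. Short genes were present too, as 32 of the 95 (33.7%) span less than 20 kb. Genes are not replicates, so the lengths were not tested.

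The longest members were Immp2l, a subunit of the mitochondrial inner membrane peptidase (931 kb), Etl4 (901 kb), the receptor phosphatase gene Ptprg (689 kb), the focal adhesion gene Lpp (599 kb) and Snd1, which encodes an RNA-binding nuclease-domain protein (460 kb). Immp2l had 0.58, 0.576 and 1.05 TPM in asynchronous cells and from 0.108 to 0.266 TPM after release, with no overlap. Etl4 had 2.23, 2.44 and 3.43 TPM in asynchronous cells, with 1.08, 1.4 and 1.63 TPM in mitotic cells and 1.47 and 1.85 TPM at 120 min. Snd1 went from 1.78, 1.96 and 2.36 TPM in mitotic cells to 1.28 and 1.41 TPM at 120 min, with 2.7, 2.93 and 4.19 TPM in asynchronous cells. Lpp overlapped, as asynchronous replicate 1 (1.45 TPM) lay below mitotic replicate 2 (1.96 TPM). Ptprg did not overlap, at 1.86, 2.35 and 3.37 TPM against at most 1.78 TPM after release. The shortest members were Lefty1 (3.38 kb), Hist1h2bq (3.59 kb) and Pramel6 (4.31 kb), a PRAME family gene with close copies, which had 0.957, 0.369 and 1.13 TPM in asynchronous cells and at most 0.492 TPM after release.

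No listed gene of DNA replication was a member. Of 43 listed genes of DNA replication and the start of S phase, 0 met the rule, compared with 0.959% of all genes, and in 0 of the 43 was the asynchronous mean the highest of all CCNA-GFP stages, as it was in 9.81% of all genes. Their summed pre-mRNA was 123 to 195 TPM in asynchronous cells, 82.8 to 132 TPM in mitotic cells and 233 to 259 TPM at 120 min, so it was above all asynchronous libraries at 120 min. In CTCF-AID −IAA, 38 of 43 were lower and 1 was higher in asynchronous cells than at 120 min by limma's test on log2(TPM + 1) (adjusted p under 0.05), against 51% and 7.25% of all 10237 genes.

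G2/M genes gave 1 member of 53 listed (1.89%), Cenpa, the histone H3 variant of centromeres. Cenpa had 9.05, 9.42 and 14.5 TPM in asynchronous cells, 4.95, 4.82 and 6.41 TPM in mitotic cells and from 4.26 to 6.42 TPM (median 5.02 TPM) after release, with no overlap. At 120 min replicates 1 and 2 had 4.26 and 4.82 TPM. Of the 53, the asynchronous mean was the highest of all stages in 4, where it was in 9.81% of all genes. In CTCF-AID −IAA 17 of 53, Cenpa among them, were higher and 10 lower in asynchronous cells than at 120 min, against 7.25% and 51% of all genes, and Cenpa was the single one of the 53 to meet the rule there. These list counts depend on the scale: with equal library totals 39 of the 53 were higher and 5 lower, and of the 43 genes of DNA replication 4 were higher and 28 lower, against 27.7% and 26.9% of all genes. After division by the scaling factor 30 of the 53 were higher and 5 lower, and of the 43 1 was higher and 18 lower, against 18.6% and 20.9%. Replication-dependent histone genes are transcribed in S phase and are not on the list of 43. Of these, 1 of 4 listed was a member, Hist1h2bq, where 0.959% of all genes are. The others went different ways. Hist1h2bc was highest in asynchronous cells, with a margin of 0.31. Hist1h2bp and Hist1h2br had margins of −2.90 and −3.22, with 20.3 and 36.7 TPM at 50 min (1 library) against means of 1.87 and 3.06 TPM in asynchronous cells. For histone genes the paper plots mRNA, not pre-mRNA. Knstrn, Atr and Xrcc5 were picked by name after their values were seen and stand for no group. Knstrn, a kinetochore and spindle protein gene, had 1.19, 1.08 and 1.51 TPM in asynchronous cells and at most 0.586 TPM after release. The checkpoint kinase gene Atr had 1.19, 0.991 and 1.71 TPM and at most 0.697 TPM after release, and Xrcc5, the Ku80 gene of end joining, 3.65, 2.83 and 5.9 TPM and at most 2.57 TPM.

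The promoters of Cenpa, of Cep57l1 (a centrosomal protein gene) and of Tdgf1 are shown because the windows printed for the first 2 hold both elements known from promoters of G2/M genes, the CCAAT box (CCAAT, or ATTGG on the other strand) and the cell cycle genes homology region (CHR, TTTGAA, or TTCAAA), whereas Tdgf1 has the CHR letters alone. Sequences are from RefSeq (GRCm38.p6), 5′ to 3′ along the gene, from 250 bases before to 50 bases after the start, with these letters in capitals.
Cenpa, chr5:30666636-30666935, + strand: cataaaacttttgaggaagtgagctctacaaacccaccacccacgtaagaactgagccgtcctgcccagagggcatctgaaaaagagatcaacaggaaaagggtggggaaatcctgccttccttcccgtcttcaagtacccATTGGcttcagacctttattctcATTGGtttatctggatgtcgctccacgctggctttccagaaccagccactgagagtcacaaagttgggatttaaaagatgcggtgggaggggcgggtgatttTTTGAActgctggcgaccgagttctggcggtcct
Cep57l1, chr10:41809819-41810118, − strand: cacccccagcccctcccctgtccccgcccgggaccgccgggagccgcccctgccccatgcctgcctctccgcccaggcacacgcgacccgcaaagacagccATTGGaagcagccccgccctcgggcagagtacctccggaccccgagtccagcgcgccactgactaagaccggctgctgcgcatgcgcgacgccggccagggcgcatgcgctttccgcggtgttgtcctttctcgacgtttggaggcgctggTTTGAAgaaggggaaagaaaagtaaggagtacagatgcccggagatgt
Tdgf1, chr9:110946109-110946408, − strand: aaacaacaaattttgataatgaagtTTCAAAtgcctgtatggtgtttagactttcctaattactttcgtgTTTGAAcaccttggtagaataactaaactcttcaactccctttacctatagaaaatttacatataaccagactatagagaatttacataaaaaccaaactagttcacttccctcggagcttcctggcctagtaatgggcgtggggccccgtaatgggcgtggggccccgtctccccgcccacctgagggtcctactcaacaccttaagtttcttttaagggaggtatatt
In Cenpa the CCAAT letters begin at bases -109 and -86, both read on the other strand, and TTTGAA begins at base 17 after the start. In Cep57l1 they begin at base -149 and at base 3, and its other window, from a start further downstream (chr10:41809614-41809913), holds TTTGAA at base -203 and no CCAAT. Promoters were matched for 80 of the 95 members, which have 102 windows. Both letter strings occur together in 4 of these windows (3.92%), in Abcg2, Cenpa, Cep57l1 and Vmn1r33, and in 6.95% of all 32851 windows of this length, so the pair is no more common among members. Counted with or without the other string, CCAAT occurs in 31.4% of member windows and 37.4% of all windows, and TTTGAA in 16.7% and 17.9%. A match is a description of letters, not of a bound site.

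Some members encode extracellular components of Nodal signalling. Nodal is a TGFβ ligand of the early embryo that acts with the coreceptor Tdgf1 (Cripto), and Lefty1 and Lefty2 encode secreted inhibitors whose transcription it induces. Of 19 genes of this pathway, a list drawn up after the members were seen, 16 are listed and 4 are members, where 0.959% of all genes are, a count that the late choice of the list leaves without weight: Lefty1, Lefty2, Tdgf1 and Inhbb, which encodes the activin βB chain. Lefty1 had 2.76, 4.42 and 1.51 TPM in asynchronous cells, 0.662, 0.498 and 0.394 TPM in mitotic cells and from 0.238 to 1.2 TPM (median 0.604 TPM) after release. Lefty2 was lower throughout, with 0.986, 0.622 and 0.32 TPM in asynchronous cells and from 0.0533 to 0.254 TPM after release. Neither overlapped between asynchronous cells and the rest.

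Tdgf1 had 14.4, 9.95 and 16.9 TPM in asynchronous cells, 2.51, 2.03 and 2.87 TPM in mitotic cells, and from 1.63 to 9.04 TPM (median 3.29 TPM) after release, again without overlap. It was also the single member among 23 listed pluripotency genes (4.35%). Inhbb varied widely between replicates: replicate 2 had 0.945 TPM in asynchronous cells, against 6.29 and 10.2 TPM in replicates 1 and 3, and lay below the later median of 1.7 TPM. The ligand itself, its receptors and the secreted activin antagonist Fst were not members, and the asynchronous mean lay below the highest other stage by 1.34 for Nodal and 1.51 for Fst. Nodal averaged 7.1 TPM in asynchronous cells and 12.4 TPM at 120 min, and in CTCF-AID −IAA it was lower in asynchronous cells than at 120 min by 1.31 ± 0.13 (SE, log2, limma adjusted p = 1.1e-08), as were Foxh1, Smad2, Smad3, Smad4, Acvr1b, Acvr2b and Pcsk6. Of the 16, 6 were higher and 8 lower in asynchronous cells than at 120 min there, against 7.25% and 51% of all genes, so the share lower is that of all genes, and with equal library totals 6 were higher and 4 lower (27.7% and 26.9%), after division by the factor 6 and 3 (18.6% and 20.9%). Fgf17, a ligand of the FGF family, likewise did not overlap, with 3.65, 3.34 and 4.53 TPM in asynchronous cells, 1.29, 1.53 and 1.66 TPM in mitotic cells and from 0.661 to 1.86 TPM after release.

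Other lists gave at most 1 member each, where 0.959% of all genes are members. Lama1, the laminin α1 chain of basement membranes, was 1 of 36 listed matrix and adhesion genes (2.78%) and also 1 of 5 listed primitive endoderm markers. It overlapped, with 1.19, 0.806 and 2.27 TPM in asynchronous cells and up to 0.874 TPM after release. Zscan4f, of a gene cluster transcribed in 2-cell-like cells and with close copies, was 1 of 6 listed markers of that state, and varied with the replicate: replicate 2 had 3.5 TPM in asynchronous cells, 1.56 TPM in mitotic cells and 1.94 TPM at 120 min, all above the 0.638 and 1.28 TPM of the other asynchronous replicates. Of the 6 markers, 5 had their highest CCNA-GFP mean in asynchronous cells (9.81% of all genes), and of 3 listed in CTCF-AID −IAA 2 were higher in asynchronous cells than at 120 min (7.25%). None of the 13 listed SRF and YAP target genes, 5 trophoblast, 4 primed epiblast or 1 fibroblast markers was a member. Whether 2-cell-like cells had a part in the members' levels was not tested.

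The 76 members listed in CTCF-AID cells were then measured in those libraries, by limma on log2(TPM + 1) with the replicate as a block. Whether replicate numbers also pair libraries across the lines was not tested. Without IAA, 70 of 76 members (92.1%) were higher in asynchronous cells than at 120 min, where 7.25% of all 10237 genes were, and the members' median difference was 0.52, against −0.23 for all genes. Against mitotic cells 64 of 76 were higher (34.3% of all genes) and against 20 min 64 (20.7%). For 40 min the count was 73 (13.5%), for 50 min also 73 (9.89%), then 69 for 60 min (7.06%) and 68 for 90 min (7.32%). Without the block the counts were 31 against mitotic cells (11.6% of all genes), 31 against 20 min (7.03%) and 43 against 90 min (3.11%), and without replicate 1 the count against 20 min was 27 (11.3%). A total of 52 members (68.4%) were higher than all 7 other stages, compared with 2.59% of all genes. No member was lower in asynchronous cells than at 120 min by limma, at an adjusted or an unadjusted p of 0.05, where 51% and 54.8% of all genes were. In place of 52, the count was 20 when the block was left out (0.586% of all genes) and 17 without replicate 1 (0.459%), and at 120 min it was 43 without replicate 1 (3.53% of all genes) in place of 70. Without replicate 1 each stage after release is a single library, assumed to vary like the other groups, and 3 residual degrees of freedom remain. Leaving out the 2 members listed there only through asynchronous cells, a step added after seeing the data, gave 68 at 120 min and 51 over all stages.

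The +IAA libraries gave counts of similar size. At 120 min 71 of 76 members (93.4%) were lower than in asynchronous cells, where 8.43% of all genes were, with a median difference of 0.56 for members and −0.20 for all genes. The counts were 58 against mitotic cells (40.9% of all genes), 59 against 20 min (33.6%), 66 against 40 min (16.5%), 72 for 50 min (10.5%), 70 for 60 min (8.24%) and 68 for 90 min (8.19%), and 41 in place of 71 at 120 min without replicate 1 (3.04%). Without the block they were 29 against mitotic cells (17.3%), 37 against 20 min (17.3%) and 43 against 90 min (3.45%), and without replicate 1 29 against 20 min (18.4%). All 7 stages were lower than asynchronous cells in 51 members (67.1%), against 2.84% of all genes, and in 21 without the block (0.762%) and 17 without replicate 1 (0.547%). The 3 asynchronous libraries lay above all 15 others in 22 members −IAA (1.08% of all genes) and in 25 members +IAA (1.33%). The asynchronous mean was the highest of all stages in 72 members −IAA (7.73% of all genes) and in 68 +IAA (7.96%).

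**Figure D3:**
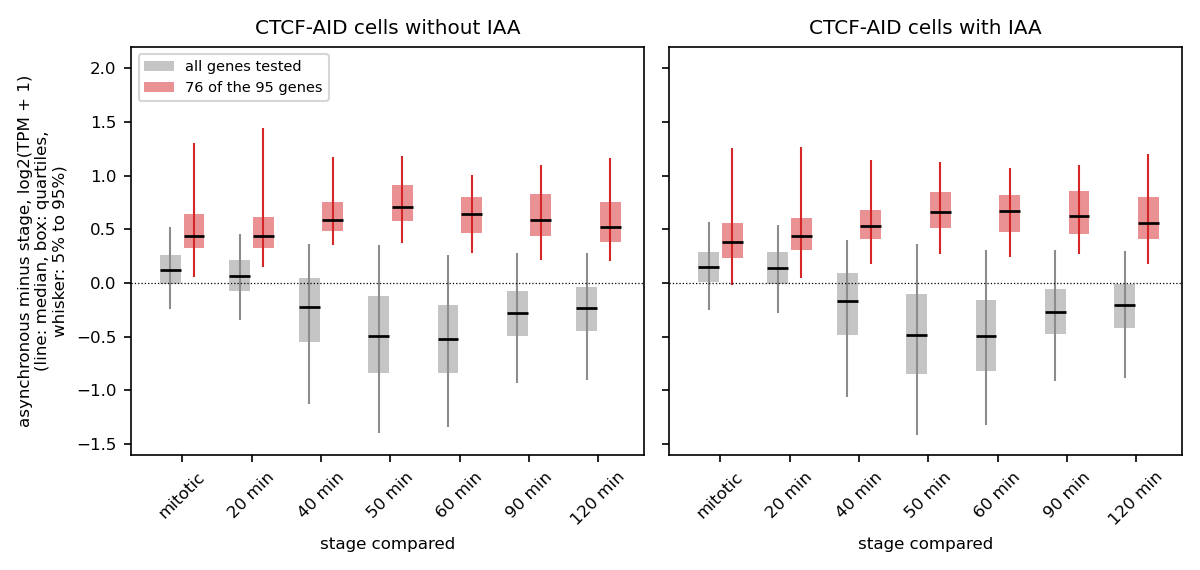
Difference between asynchronous cells and each stage (log2(TPM + 1), limma estimates) in CTCF-AID cells −IAA (left) and +IAA (right), for all 10237 genes (grey) and the 76 members listed there (red). Lines are medians, boxes quartiles and whiskers the 5% and 95% points; at 120 min the medians are −0.23 and 0.52 −IAA, and −0.20 and 0.56 +IAA.

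How many members kept a gap of this size in CTCF-AID cells depended on the scale. On log2(TPM + 1) the margin of 0.4 was met by 44 genes −IAA (0.43% of 10237), of which 27 are members, that is 61.4% of the 44 and 35.5% of the 76. With IAA it was met by 51 genes (0.498%), 24 of them members. After division by the scaling factor 57 members met it −IAA (203 genes, 1.98% of all) and 49 +IAA (200 genes, 1.95%). With a pseudocount of 0.1 these counts were 48 (164 genes, 1.6%) and 41 (160 genes, 1.56%), and without replicate 2 they were 44 (128 genes, 1.25%) and 31 (98 genes, 0.957%). Other settings lowered them: 20 (34 genes, 0.332%) and 17 (28 genes, 0.274%) without replicate 1. Without replicate 3 they were 18 (26 genes, 0.254%) and 18 (43 genes, 0.42%). With equal library totals they were 32 (137 genes, 1.34%) and 21 (117 genes, 1.14%). On log2(TPM + 1) with all replicates the margin was met in both arms by 30 genes, among them 20 members: Hist1h2bq, Tdgf1, Uri1, C330024D21Rik, Dusp27, Cenpa, Ppp1r9a, Nphs1, Triml1, Rnf165, Slc1a3, Msantd2, Platr26, Cep68, Coq2, Car4, Pde6d, Lefty2, Lyplal1 and Bnc2. The 27 members that met it −IAA had a median span of 28.9 kb, and the 49 that did not 78.9 kb. Of the 13 members over 200 kb listed there, 9 were higher in asynchronous cells than at all 7 stages, as were 20.4% of the 294 genes of that length, and of the 23 under 20 kb 13 were, against 1.25% of 4719 genes.

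Cenpa did not overlap between asynchronous cells and any other stage in either CTCF-AID arm. Without IAA it had 10.6, 8.15 and 13.1 TPM in asynchronous cells and 4.24 and 3.72 TPM at 120 min, and with IAA 11.6, 8.79 and 13.1 TPM and 4.43 and 4.03 TPM. Asynchronous cells were higher by 1.11 ± 0.08 (SE) on the log2 scale in both arms (adjusted p = 2.7e-10 and 2.8e-10, limma). For Tdgf1 the −IAA values were 17.6, 8.69 and 20 TPM in asynchronous cells and 3.51 and 5.7 TPM at 120 min, but up to 13 TPM at 90 min, above the lowest asynchronous library, and the difference at 120 min was 1.24 ± 0.35 (adjusted p = 0.00473). Lefty1 had 7.36, 8.36 and 2.77 TPM in asynchronous cells and 0.388 and 3.16 TPM at 120 min, a difference of 1.84 ± 0.38 (adjusted p = 0.0003, and 0.0769 without the block). It was not higher than every stage, since its libraries after release reached 10.4 TPM, at 60 min in replicate 2, and it passed the test for 6 of 7 stages.

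Hist1h2bq again was far above mitotic cells by 120 min (186 and 143 TPM against 20.4, 28.6 and 6.34 TPM) and below asynchronous cells (262, 373 and 243 TPM), with no overlap. Its asynchronous minus 120 min difference of 1.07 ± 0.46 was just past the threshold (adjusted p = 0.0494) and lost it under 5 of the 8 alternatives, where adjusted p ran up to 0.27. Fgf17 differed by 1.16 ± 0.16 (adjusted p = 1.5e-06), Snd1 by 0.89 ± 0.10 (1.8e-07), Uri1 by 0.74 ± 0.13 (5e-05) and Rpl24 by 0.58 ± 0.11 (0.00016). In CTCF-AID −IAA the Rpl24 mitotic libraries (6.26, 5.47 and 6.68 TPM) overlapped with the asynchronous ones (5.75, 6.21 and 7.47 TPM). Its change from mitotic cells was −0.75 ± 0.11 at 60 min and −0.51 ± 0.11 at 120 min there (limma adjusted p = 1.3e-06 and 0.00033), whereas it came up in CCNA-GFP cells. Snd1 likewise had 2.22, 2.98 and 3.83 TPM in mitotic cells and 3.66, 2.78 and 4.53 TPM in asynchronous cells, and came down to 1.21 and 1.45 TPM at 120 min. The transcript 1700030C10Rik had the largest of the 76 differences −IAA, 2.10 ± 0.40 (adjusted p = 0.00011), from 3.63, 3.5 and 1.4 TPM in asynchronous cells to 0 in both 120 min libraries. At 90 min, however, replicate 1 had 2.72 TPM, above the lowest asynchronous library. The transcript passed the test for 6 of 7 stages −IAA and for 3 +IAA, and in CCNA-GFP cells it was listed at 0 in asynchronous replicate 1.

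**Figure D4:**
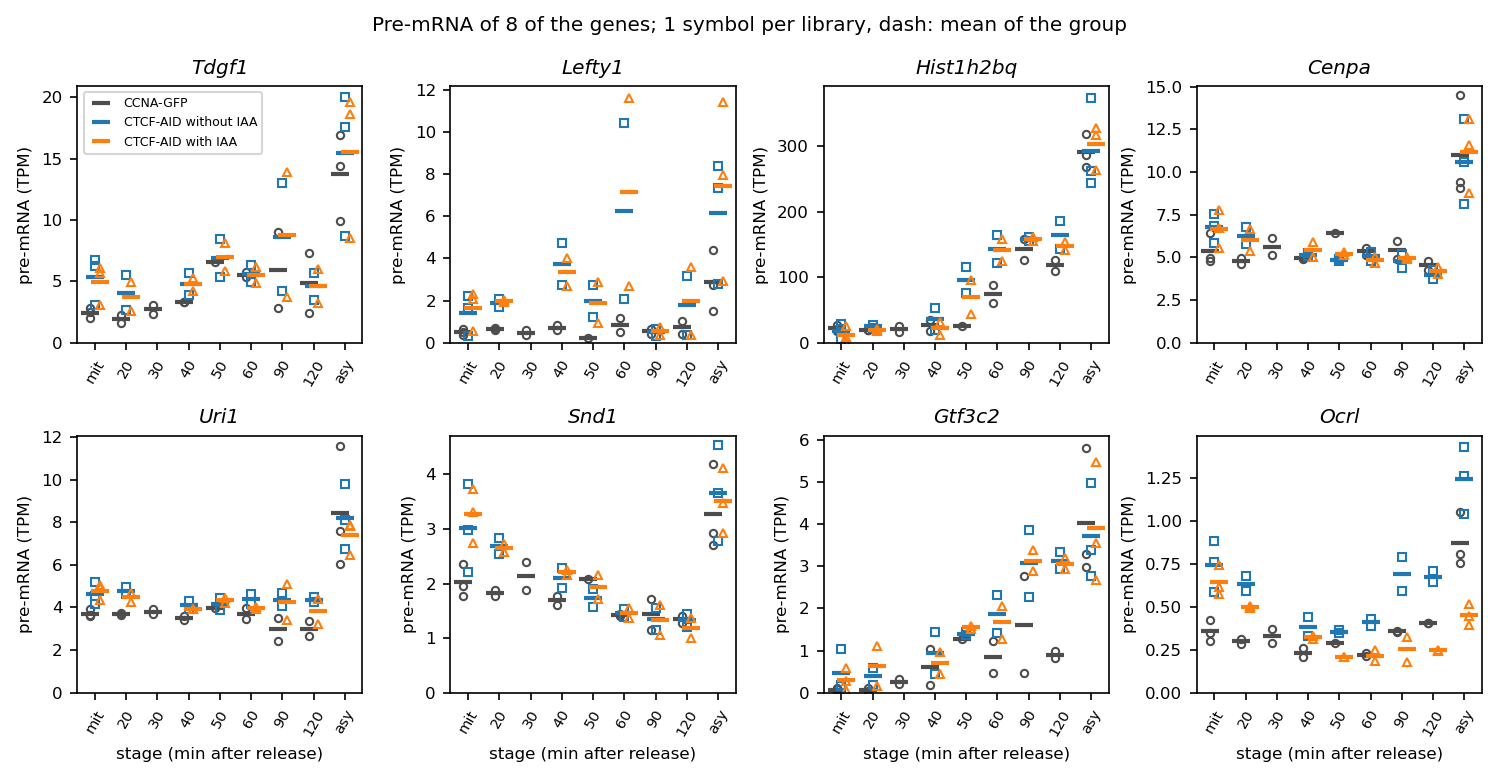
Pre-mRNA (TPM) of Tdgf1, Lefty1, Hist1h2bq, Cenpa, Uri1, Snd1, Gtf3c2 and Ocrl at each stage (mitotic, min after release, asynchronous) in CCNA-GFP cells (grey circles) and CTCF-AID cells −IAA (blue squares) and +IAA (orange triangles), with 1 symbol per library and a dash at each group's mean. Cenpa lies between 3.72 and 4.82 TPM at 120 min in all 3 series, Gtf3c2 returns to the asynchronous range in CTCF-AID cells alone, and Ocrl with IAA lies at 0.245 and 0.249 TPM at 120 min.

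In 6 of the 76 members asynchronous cells did not differ from 120 min −IAA at an adjusted p of 0.05: Gtf3c2, Cobl, Sumo3, Cep57l1, Ptprg and Hus1. With IAA 5 did not: Gtf3c2, Sumo3, Hus1, Inhbb (adjusted p = 0.762) and Lama1 (0.0663), while Cobl (0.0226), Cep57l1 (0.0191) and Ptprg (0.0347) passed limma's test, and none of these passed the test of the difference between arms (adjusted p = 1). Gtf3c2, widest in CCNA-GFP cells, had 3.4, 2.78 and 4.98 TPM in asynchronous CTCF-AID −IAA cells and 2.94 and 3.33 TPM at 120 min, a difference of 0.07 ± 0.21 (adjusted p = 0.772). Sumo3, a ubiquitin-like modifier gene that overlaps the annotated Gm49325, had 0.87, 0.783 and 0.61 TPM in asynchronous CCNA-GFP cells and at most 0.282 TPM after release. In CTCF-AID −IAA it had 0.818, 0.76 and 0.264 TPM in asynchronous cells and 1.76 and 0.783 TPM at 120 min (−0.30 ± 0.21, adjusted p = 0.218). Hus1 had 2.03, 1.28 and 2.36 TPM and 1.64 and 1.57 TPM (0.05 ± 0.08, adjusted p = 0.638). The asynchronous and 120 min libraries overlapped in all 3 genes. Lama1, Enah and Sumo3 were higher in asynchronous cells than at no more than 3 of the 7 stages −IAA.

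Whether the members rise at all after release could be tested in the CTCF-AID cells too. Only 5 of 76 members were higher at 60 min than in mitotic cells −IAA, whereas 84.8% of all genes were, and 31 were lower (2.7% of all genes). At 120 min 11 members were higher (69.6% of all genes) and 23 lower (3.15%), and the members' median change was −0.07, compared with 0.34 for all genes. The 11 were Gtf3c2, Hist1h2bq, Cobl, Sumo3, Inhbb, Msantd2, Cep57l1, Cep68, Pde6d, B3gntl1 and Hus1. Those lower at 120 min included Slc27a2, a fatty acid transporter gene (−0.92 ± 0.10), Fgf17 (−0.69 ± 0.16), Snd1 (−0.67 ± 0.10) and Cenpa (−0.55 ± 0.08). Of the 13 members over 200 kb, 1 was higher at 120 min and 5 lower, against 53.4% and 10.9% of all genes of that length. Of the 23 under 20 kb, 4 were higher and 3 lower, against 74.8% and 2.16%. Without the block 2 members were higher at 120 min −IAA (42.3% of all genes) and 14 lower (1.7%). With IAA 5 members were higher at 60 min (82.2% of all genes) and 36 lower (4.04%), 9 were higher at 120 min (68.2%) and 32 lower (4.42%). Without the block the last 2 counts were 3 (43.7%) and 21 (2.57%), and without replicate 1 the members lower at 120 min with IAA numbered 13 (1.39%). Without replicate 2, 4 were higher at 120 min with IAA (41.5%) and 3 at 60 min (76.1%), and without replicate 1 18 were lower at 60 min with IAA (1.95%).

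These counts depend on the scale. When each library was set to the same total of listed TPM, the median difference of all genes between asynchronous cells and 120 min −IAA moved from −0.23 to 0.00 and that of the members from 0.52 to 0.79. Members higher in asynchronous cells than at 120 min then numbered 74 −IAA, where 27.7% of all genes were higher and 26.9% lower, and after division by the scaling factor 74, where 18.6% were higher and 20.9% lower. With equal totals, members lower at 120 min than in mitotic cells numbered 54 −IAA (25.9% of all genes on that scale) and 59 +IAA (28.7%). Those lower at 60 min numbered 66 −IAA (31.1%) and 64 +IAA (33.2%). In CCNA-GFP cells the same step moved the all-gene median of asynchronous minus mitotic from 0.33 to 0.03. The rule then found 123 genes, 41 of them members. In 49 of the 54 members lost, mitotic cells or 20 min had then become the highest other stage, and the asynchronous mean was still the highest of all in all 54.

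The arms with and without CTCF depletion were then compared. None of the 76 members, and none of the 10237 genes, passed limma's test of the difference between arms in asynchronous minus 120 min (adjusted p under 0.05), and at an unadjusted p under 0.05 there were 1 member and 103 genes. Ocrl, an X-linked gene of a phosphoinositide phosphatase of the endocytic pathway (chromosome X, 47912387 to 47965868), was that member, with a difference between arms of −0.20 ± 0.08 (adjusted p = 1). Directly between arms, at an adjusted p under 0.1 and a log2 difference over 0.2, Ocrl was also the single member called, in asynchronous cells (0.694% of all genes were lower and 0.313% higher with IAA) and at 120 min (0.459% lower and 0.127% higher). With the replicate block, Car2 was called too in asynchronous cells (1.53% of all genes were lower and 0.899% higher). The fit without the block also called Car2 there when replicate 2 was left out (0.527% lower and 0.176% higher).

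Ocrl had 1.04, 1.26 and 1.43 TPM in asynchronous cells −IAA and 0.394, 0.443 and 0.516 TPM +IAA. At 120 min it had 0.707 and 0.643 TPM −IAA and 0.245 and 0.249 TPM +IAA, so the arms did not overlap at either stage. The IAA difference was −0.63 ± 0.07 in asynchronous cells (adjusted p = 8.9e-06) and −0.43 ± 0.09 at 120 min (adjusted p = 0.0174). In mitotic cells, at 0.587, 0.757 and 0.88 TPM −IAA and 0.575, 0.613 and 0.743 TPM +IAA, the arms overlapped. With IAA, Ocrl was the single member lower in asynchronous than in mitotic cells by the blocked fit (5.89% of all genes), a call lost without the block, without replicate 2 and after division by the scaling factor. With equal library totals Enah and Ide were called with it (22.4% of all genes). Without replicate 1 no gene of the 10237 was called lower or higher with IAA at either stage, Ocrl included, and without replicate 2 Ocrl was not called at 120 min. Car2, the carbonic anhydrase 2 gene, had 1.51, 8.65 and 1.87 TPM in asynchronous cells −IAA and 0.708, 5.51 and 0.83 TPM +IAA. The arms overlapped, since replicate 2 was high in both, but each replicate was lower with IAA. The difference was −0.59 ± 0.15 with the block (limma adjusted p = 0.0334) and −0.59 ± 0.59 without it (adjusted p = 1).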

How the data were processed

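The authors aligned stranded, ribo-depleted RNA-seq reads to mm10 with STAR, quantified them with RSEM on Gencode vM12 plus a pre-mRNA isoform per gene, and deposited TPM of that isoform for 55 libraries. In each library, values under 5 TPM are whole multiples of a step, within a tolerance of 0.05 steps. The step is 0.01 times a factor (2.17 to 3.81 in CCNA-GFP, 1.84 to 2.8 in CTCF-AID) that the sources used here do not name. Every column was mapped to a sample, and 0 were left unused. Asynchronous CTCF-AID headers are garbled, and their stage was read from the column names of the authors' supplementary table.

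Members were found with Python 3.11.15 on mean log2(TPM + 1). The members and lists were chosen with earlier results of these data known. CTCF-AID tests used limma 3.58.1 (R 4.3.3; lmFit, eBayes with trend) over all 10237 genes, 36 libraries and 16 groups, with Benjamini-Hochberg adjustment within each comparison. The replicates are separate experiments by the study's methods. Replicate numbers pair libraries: deviations from group means correlated above 0.1 in 88 of 88 pairs of groups with more than a single replicate number in common. The lowest correlation of any replicate was 0.11, and the highest median of a pair of groups was 0.81. The block was therefore in the main fit, the interaction of arm and stage included. The comparison of arms within a stage was fitted without it, a choice made here: the study's methods give the thresholds used for it and name no covariate. DESeq2, which the authors ran on counts, was not used, since TPM are not counts. In simulated data with the same groups, each library was drawn independently and no replicate effect was put in. There the asynchronous to 120 min comparison recovered 79.5% of 200 genes changed by 0.8 and 11.5% of those changed by 0.4. The deposited libraries are paired by replicate, so these shares do not give the recovery in them, which was not tested.

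Named genes are the 10 members with the widest margin, up to 3 per list, the 5 longest and 3 shortest, the 3 highest and 3 lowest CTCF-AID −IAA differences at 120 min, members called for IAA, and the neighbours of the threshold. Others named were chosen after their values were seen. Spans are from Gencode vM21 (GRCm38, the assembly of mm10), with 9900 of 9911 symbols matched. Alternatives were a pseudocount of 0.1, equal library totals, division by the factor, a mean of at least 1 TPM, other thresholds, each replicate left out, and the fit without the block.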

Additional observations from a re-analysis of the deposited data

How the results depend on the processing

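The rule gave 288 genes with a pseudocount of 0.1, 173 after division by the scaling factor, 49 above a mean of 1 TPM, 184 and 42 at thresholds of 0.3 and 0.5, 64 with differences within replicates (55 of the 95 kept), and 59 to 177 with a replicate left out. With a mean of at least 1 TPM, members higher than all 7 stages numbered 34 −IAA (1.63% of 7523 genes) and 33 +IAA (1.87%), and members lower at 60 min −IAA 18 (2.13%). Those lower with IAA numbered 0 in asynchronous cells (0.518%) and 0 at 120 min (0.332%). On this setting 53 of the 76 members were tested and Ocrl was not. With equal library totals, members higher than in mitotic cells numbered 2 at 60 min in each arm (39.4% of all genes −IAA and 40.7% +IAA). At 120 min they numbered 3 −IAA (32%) and 4 +IAA (33.5%). Members lower at 120 min then numbered 54 −IAA (25.9%) and 59 +IAA (28.7%), and members lower at 60 min 66 (31.1%) and 64 (33.2%). Division by the factor gave 7 higher at 120 min than in mitotic cells −IAA (60.8% of all genes). Members meeting the rule in CTCF-AID −IAA and +IAA numbered 48 and 41 with the pseudocount of 0.1 (1.6% and 1.56% of all genes). After division by the factor they numbered 57 and 49 (1.98% and 1.95%). Without the replicate block, members higher than all 7 stages numbered 20 and 21 (0.586% and 0.762% of all genes). Those higher at 120 min than in mitotic cells numbered 2 and 3 (42.3% and 43.7%), and those lower 14 and 21 (1.7% and 2.57%). Those higher at 60 min +IAA numbered 3 (70.4%). Members higher in asynchronous than in mitotic cells numbered 31 and 29 (11.6% and 17.3%), than at 20 min 31 and 37 (7.03% and 17.3%) and than at 90 min 43 and 43 (3.11% and 3.45%). Counts with a replicate left out rest in part on single libraries. The share of all genes passing moved with them and stands above beside the lowest counts, so the ranges cannot be read alone. With the replicate block, 2 members (Ocrl and Car2) were lower with IAA in asynchronous cells (1.53% of all genes). Leaving out a replicate gave, −IAA and +IAA, 43 to 68 and 41 to 71 members higher in asynchronous cells than at 120 min, and 17 to 47 and 17 to 50 higher than all 7 stages. With IAA it gave 3 to 6 higher at 60 min, 4 to 10 higher at 120 min and 13 to 34 lower at 120 min, and 18 to 40 lower at 60 min. Without replicate 1, 27 (−IAA) and 29 (+IAA) members were higher in asynchronous cells than at 20 min. With each replicate left out in turn, members lower with IAA in asynchronous cells ranged from 0 to 2 (0% to 0.527% of all genes). Members meeting the rule −IAA ranged from 18 to 44 (0.254% to 1.25%), and those meeting it +IAA from 17 to 31 (0.274% to 0.957%). The cause of these shifts was not tested. Of 167 repeats of the 22 named gene differences (asynchronous minus 120 min), 147 kept their side of the threshold, 15 lost it, 5 gained it and 0 reversed. The unknown depth limits members near 0.5 TPM.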
